A study of Mus musculus with 2 samples.

Results

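Described here are 10 genes of the insulin-like growth factor (IGF) system in cells sorted from mouse skin as keratinocytes. The libraries also held abundant markers of fibroblasts and macrophages, given below. The genes are ligand gene Igf1, receptor genes Igf1r, Insr and Igf2r, and binding protein genes Igfbp2, Igfbp3, Igfbp4, Igfbp5, Igfbp6 and Igfbp7. They were chosen by symbol, and all 10 were found among the 50559 genes of both count files. The cells came from back skin of mice aged 21 days after birth, when hair follicles rest (telogen). Their genotype is given as Polr2b.fl.fl.GFP; K14Cre: a floxed allele of Polr2b, a gene of RNA polymerase II, that carries GFP, and Cre driven by the keratin 14 promoter, whose activity lies in basal epidermis and its descendants. Live GFP-positive cells were collected by flow cytometry and their total RNA, freed of ribosomal RNA, was sequenced. There is 1 group of 2 replicate libraries, every library carries both modifications, and no other genotype, time or treatment was part of the design, whose stated aim was to relate steady-state to nascent RNA. The labels do not give sex or say whether the replicates came from separate animals. Sex-linked RNA, given below, shows that they did not share 1 animal.

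IGF1 and IGF2 are secreted growth factors that signal through the IGF1 receptor, a receptor tyrosine kinase closely related to the insulin receptor, to the kinases PI3K and AKT and to the MAP kinase pathway. The receptor encoded by Igf2r does not signal in this way: it takes up IGF2 for degradation in lysosomes and also sorts lysosomal enzymes that carry mannose 6-phosphate. Secreted binding proteins hold the ligands, lengthen their life and limit their access to receptors, and proteases release the ligands by cutting them. In skin, dermal fibroblasts and macrophages are known sources of IGF1, and keratinocytes are known to carry its receptor.

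Promoter sequence was at hand for 9 of the 10 genes, from RefSeq on build GRCm38.p6. The windows below hold the 100 bases before the transcript start of 5 of them, read in the direction of the gene, and none of these windows overlaps an exon of GENCODE release M21. Igf1r and Igf2r are shown as receptors of contrasting function, Igfbp4 and Igfbp2 as the binding protein genes with the highest and the lowest level below, and Igfbp7 because the end of its gene meets that of Polr2b. Capitals mark 3 motifs searched on both strands: the TATA box as TATAAA, the GC box as GGGCGG and the E-box as CACGTG.
Igf1r, chr7:67952157-67952256, plus strand: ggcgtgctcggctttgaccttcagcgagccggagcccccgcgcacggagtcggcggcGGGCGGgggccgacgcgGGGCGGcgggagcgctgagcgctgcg
Igf2r, chr17:12769707-12769806, minus strand: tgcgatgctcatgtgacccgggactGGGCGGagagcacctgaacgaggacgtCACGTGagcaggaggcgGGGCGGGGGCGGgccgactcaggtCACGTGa
Igfbp4, chr11:99041144-99041243, plus strand: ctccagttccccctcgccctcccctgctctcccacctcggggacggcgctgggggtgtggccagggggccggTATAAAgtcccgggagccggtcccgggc
Igfbp2, chr1:72824380-72824479, plus strand: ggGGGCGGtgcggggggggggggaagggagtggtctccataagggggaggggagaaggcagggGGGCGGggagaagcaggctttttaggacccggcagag
Igfbp7, chr5:77408046-77408145, minus strand: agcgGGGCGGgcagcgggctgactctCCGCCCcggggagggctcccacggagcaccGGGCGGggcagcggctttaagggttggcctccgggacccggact
Igf1r has 2 GC boxes here, Igf2r has 3 GC boxes and 2 E-boxes, and Igfbp7 has 4 GC boxes, of which 1 lies outside the printed bases. The printed promoter of Igfbp2 has 3 GC boxes, 1 of them outside the printed bases together with its single E-box. A second promoter listed for Igfbp2 has none of the 3 motifs. Igfbp4 has no GC box and a TATA box that starts at position -28, counted back from the transcript start. In the 250 bases before the start, a GC box was found in 4 of the 10 promoters listed for these 9 genes, a TATA box in 2 and an E-box in 2. Over all 32851 promoters in the table, 32.7% held a GC box, 12.4% a TATA box and 6.02% an E-box in a window of the same length. A match describes the letters only.

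The libraries held 36692204 counts (replicate 1) and 33489967 counts (replicate 2). Where 1 gene is followed between libraries, its level is in CPM, its share of all counts on a fixed scale. Genes are compared with each other in TPM, the same share after division by the deposited gene length. Both are means ± SD over 2 libraries. The libraries stand apart in sex-linked RNA: Xist, which silences an X chromosome in female cells, had 112587 and 11 counts in the first and second library, against 0 and 2394 for the Y-linked gene Uty. Keratinocyte markers were abundant, with all 8 basal genes at or above 10 CPM in each library and Krt5 at 5763 ± 1799 TPM. So were markers of other skin cells: all 10 fibroblast genes, led by Col1a1 at 1716 ± 875 TPM, and all 10 macrophage genes, led by Lyz2 at 3994 ± 1059 TPM, passed the same level. In such bulk libraries fewer cells of a type and less RNA per cell cannot be told apart, and which cells made the IGF system RNAs was not tested.

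All 10 genes were detected at 1 CPM or more in both libraries, as were 31.3% of all genes listed. At 10 CPM or more in both stood 9 of them, beside 60.2% of the genes that passed 1 CPM, and the exception was Igfbp2. Scaled by length, the median was 97.5 TPM for the 6 binding protein genes and 27.1 TPM for the 3 receptor genes, with Igf1 between them at 52.4 TPM. This order rests on the scaling by length, since the medians were 73.3 CPM for the binding proteins and 114 CPM for the receptors, with Igf1 at 182 CPM. The classes also overlapped in TPM, where Igfbp2 was below every receptor gene and Igfbp5 was below Insr and Igf1r in replicate 2. The summed level of the 10 genes was 967 TPM in replicate 1 and 776 TPM in replicate 2.

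**Figure D1:**
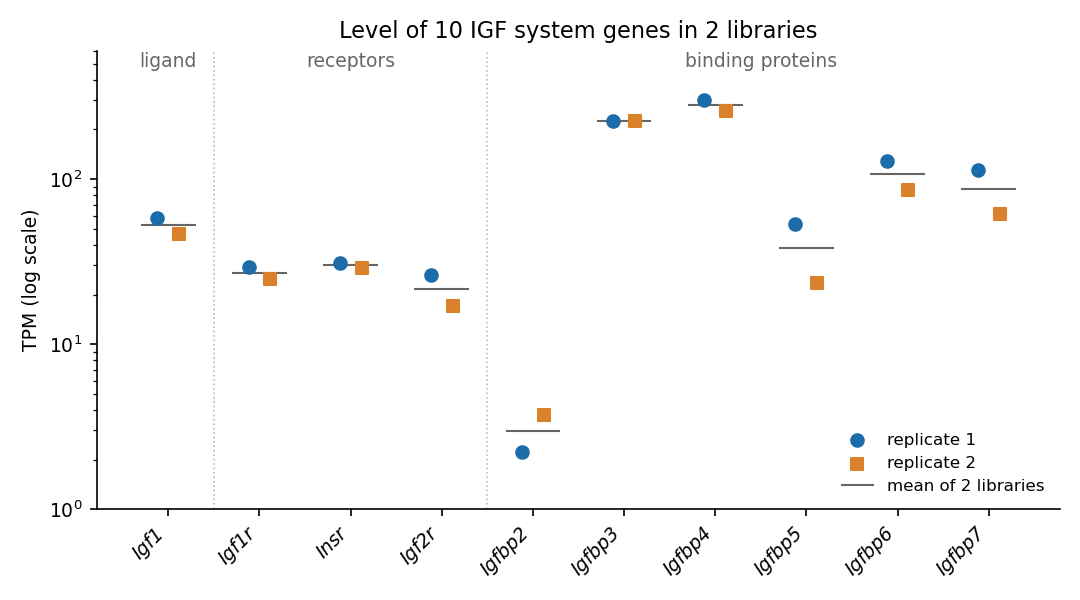
TPM on a log axis of the 10 IGF system genes, by role, with replicate 1 as circles, replicate 2 as squares and the mean of both as a line. Igfbp4 and Igfbp3 stand above 200 TPM in both libraries and Igfbp2 below 4 TPM, and the symbols of Igfbp5 and Igfbp7 lie farthest apart among the genes above 10 CPM.

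Igf1 encodes the ligand of the IGF1 receptor. It had 58.1 TPM in replicate 1 and 46.7 TPM in replicate 2, a mean of 52.4 ± 8.05 TPM, and lay at the 82.8 percentile of the detected genes. Its level exceeded that of its receptor gene Igf1r by 1.97-fold in replicate 1 and 1.89-fold in replicate 2, a difference of 0.95 ± 0.04 on the log2 TPM scale. The direction held in both libraries. Igf2, the ligand gene best known for growth before birth, was lower at 16.8 and 8.10 TPM, and Ins1 and Ins2, the insulin genes of the pancreas, had no count in either library. A count of 0 leaves room for 0.0818 CPM (replicate 1) or 0.0896 CPM (replicate 2).

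Scaled by length, the 3 receptor genes lay within a narrow range. Insr, the insulin receptor gene, had 31.1 TPM in replicate 1 and 29.1 TPM in replicate 2, or 30.1 ± 1.40 TPM. Igf1r had 29.5 and 24.8 TPM, or 27.1 ± 3.34 TPM. Insr stood above Igf1r in both libraries, by 1.05-fold and 1.17-fold, but their ranges over the libraries overlapped. This order rests on the length of the gene models, since without length scaling Igf1r was the higher by 0.31 ± 0.11 (log2 CPM). Igf2r had 26.2 TPM in replicate 1 and 17.0 TPM in replicate 2, or 21.6 ± 6.51 TPM. It was below Igf1r by 1.13-fold and 1.46-fold, and again the ranges overlapped. With no length scaling the log2 difference of Igf2r against Igf1r was larger, at -0.90 ± 0.26 (log2 CPM). In mouse tissues Igf2r is transcribed from the maternal allele, and the antisense RNA Airn arises within it on the paternal allele. Airn was scarce, at 4.72 and 2.51 TPM. The insulin receptor-related gene Insrr had 6 counts in replicate 1 and 0 in replicate 2.

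Beside other receptor tyrosine kinase genes known in skin, the levels of Insr and Igf1r were intermediate. By TPM, Insr had rank 7 and Igf1r rank 8 of 13 such genes in each library. They lay below all FGF and EGF receptor genes of the list and above the HGF receptor gene Met and the PDGF receptor genes. This order rests on the scaling by length. In CPM, Igf1r (154 and 129) stood above Fgfr3 (96.6 and 126) in both libraries. In replicate 1 it also stood above Erbb2 (103 CPM) and Erbb3 (130 CPM), and Insr (118 CPM) above Fgfr3 and Erbb2. Fgfr1, Fgfr2 and Egfr stayed above Insr and Igf1r in CPM. Fgfr1 was highest at 199 and 158 TPM, followed by Fgfr2 at 83.2 and 106 TPM, and the epidermal growth factor receptor gene Egfr had 85.1 and 66.2 TPM. Pdgfra, a fibroblast marker, had 27.2 and 15.6 TPM. The endothelial receptor gene Kdr and the mast cell and melanocyte receptor gene Kit lay at 2.37 ± 0.507 and 1.69 ± 0.670 TPM.

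**Figure D2:**
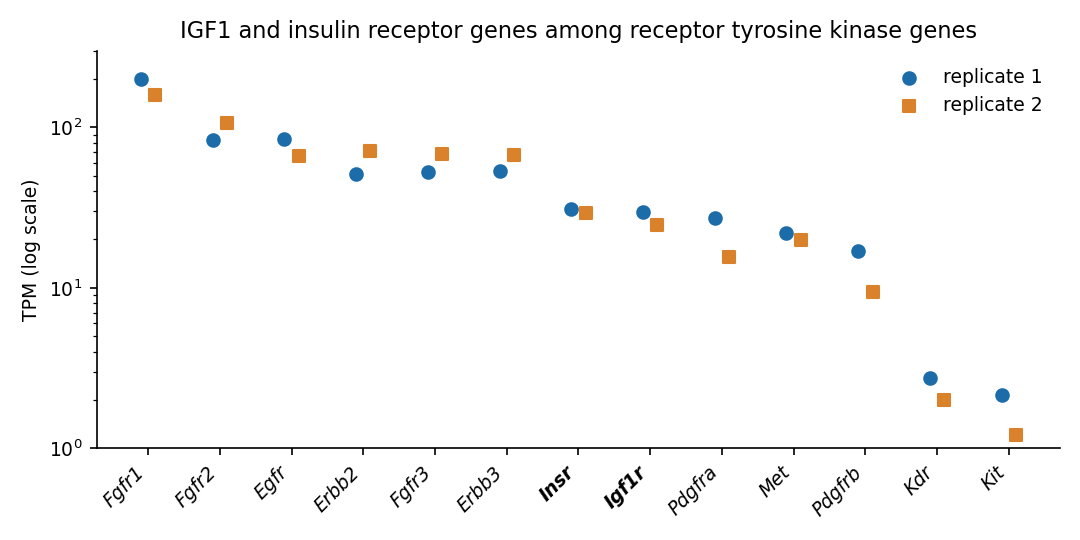
TPM on a log axis of 13 receptor tyrosine kinase genes in replicate 1 (circles) and replicate 2 (squares), ordered by their mean, with Insr and Igf1r in bold. Both lie between the FGF and EGF receptor genes and the genes Pdgfra and Met, at 24.8 to 31.1 TPM.

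Among the binding proteins, Igfbp4 and Igfbp3 led. Igfbp4, which encodes a binding protein cut by the metalloprotease pappalysin 1, had 300.1 TPM in replicate 1 and 259 TPM in replicate 2, or 279.5 ± 29.1 TPM, at the 97.4 percentile of detected genes. Igfbp3 encodes the main carrier of IGFs in blood, and is also known from basal keratinocytes. It had 224 and 225 TPM, and its SD of 0.680 TPM was the smallest of the 10 genes. Igfbp6, whose product prefers IGF2, had 128 TPM in replicate 1 and 86.5 TPM in replicate 2. Igfbp7, whose product binds IGFs only weakly and lies in the matrix around vessels, had 114 and 61.3 TPM. Igfbp6 and Igfbp7 kept this order within each library, but their ranges over the libraries overlapped. Igfbp5, whose product binds matrix and is cut by pappalysin 2, had 53.5 TPM in replicate 1 and 23.4 TPM in replicate 2. Its SD of 21.3 TPM beside a mean of 38.5 TPM was the largest relative spread of the 10. Igfbp2, whose product carries an integrin-binding RGD motif, was lowest with 57 counts in replicate 1 and 87 in replicate 2, or 2.24 and 3.75 TPM.

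Ordered by mean TPM, the genes ran Igfbp4, Igfbp3, Igfbp6, Igfbp7, Igf1, Igfbp5, Insr, Igf1r, Igf2r and Igfbp2. The ranges of the libraries did not overlap between Igfbp4 and Igfbp3, Igfbp3 and Igfbp6, Igfbp7 and Igf1, or Igf2r and Igfbp2. All other neighbours in this order overlapped, and Igfbp5 and Insr changed places between the libraries. The order rests in part on the scaling by length. In CPM, Igf1 (201 and 162) stood above Igfbp7 (55.7 and 29.9) in both libraries. Igfbp3 (364 CPM) stood above Igfbp4 (338 CPM) in replicate 2. The other pairs without overlap kept their order in CPM. The smallest p of a two-sided sign-flip permutation test on 2 libraries is 0.5, and none is given for levels.

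The 6 binding protein genes together exceeded Igf1 by 14.1-fold in each library, or 3.82 on the log2 TPM scale in both. Without length scaling the difference was 2.34 (log2 CPM). Igfbp4 made up 36.5% of the summed binding protein TPM in replicate 1 and 39.3% in replicate 2. Igfbp3 made up 27.2% and 34.1%. The shares of Igfbp6 (15.6% and 13.1%), Igfbp7 (13.8% and 9.30%) and Igfbp5 (6.51% and 3.56%) were smaller in replicate 2. Igfbp2 stayed below 1% of the total, at 0.272% and 0.569%. Igfbp7 was 2.64-fold below Igfbp4 in replicate 1 and 4.23-fold in replicate 2, and Igfbp3 was 4.18-fold and 9.60-fold above Igfbp5. Without length scaling Igfbp3 (39.9%) and Igfbp4 (39.8%) had almost equal shares, and Igfbp5 (9.59%) came before Igfbp6 (6.01%) and Igfbp7 (4.56%). No test can be made of these shares with 1 group of 2.

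**Figure D3:**
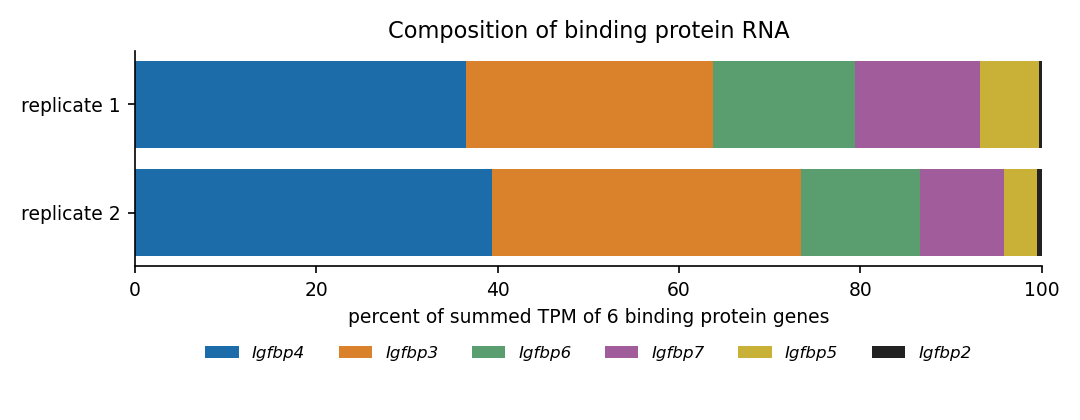
Share of each gene in the summed TPM of 6 binding protein genes, in percent, as stacked bars for replicate 1 (top) and replicate 2 (bottom). Igfbp4 and Igfbp3 fill most of both bars, and the segments of Igfbp6, Igfbp7 and Igfbp5 are narrower in replicate 2.

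The libraries were then compared gene by gene. They differ in Xist and Uty as given above, so a ratio between them cannot be told apart from a difference of sex. An exact binomial test (two-sided, against the totals of the libraries, Benjamini-Hochberg adjusted over 23690 genes at 0.05) sets 2 libraries side by side, no condition, and measures counting error only. It called 44.1% of the genes tested, 27.2% lower and 16.9% higher in replicate 2, and 63.9% of the genes that had 10 CPM or more in each library, 34.5% lower and 29.4% higher. Of the 10 IGF system genes, 8 were lower in replicate 2, Igfbp2 was higher and Igfbp3 was not called. Their median log2 ratio was -0.29, beside -0.07 for all genes tested. Scaling by TMM, which compares most genes rather than totals, moved the split of all calls from 38.3% to 51.5% higher. The members were then 7 lower and 2 higher.

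Igfbp5 had the largest difference. It went from 126 CPM (replicate 1) to 55.2 CPM (replicate 2), or 2.29-fold lower, a log2 ratio of -1.19 with an exact 95% interval from -1.27 to -1.12. Igfbp7 followed at 55.7 and 29.9 CPM, or 1.86-fold lower. Igf2r stood at 94.4 and 61.1 CPM, or 1.54-fold lower, and Igfbp6 at 66.7 and 44.9 CPM, or 1.49-fold lower. Among genes with 10 CPM or more in each library, the central 90% had log2 ratios from -0.58 to 0.44, where the fifth percentile is the lower end. Igfbp5, Igfbp7 and Igf2r lay beyond it, at -1.19, -0.88 and -0.62, while Igfbp6 lay just inside at -0.57. The smaller differences were those of Igf1 (201 and 162 CPM, 1.25-fold), Igf1r (154 and 129 CPM, 1.19-fold) and Igfbp4 (393 and 338 CPM, 1.16-fold), all lower in replicate 2 under each scaling tried.

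Insr, Igfbp3 and Igfbp2 depended on the scaling. Insr had 118 and 110.4 CPM, with an adjusted p of 0.00758 in the exact binomial test at a log2 ratio of -0.10, but its adjusted p was 0.644 with TMM. Igfbp3 stood at 363 and 364 CPM, with a log2 ratio of 0.00, an interval from -0.03 to 0.04 and an adjusted p of 0.915 in the same exact test. It was called higher with TMM, at 0.08, and lower when the libraries were scaled to cell junction genes, at -0.45. Igfbp2 had 1.55 and 2.60 CPM, or 1.67-fold higher in replicate 2 with an interval from 1.18-fold to 2.38-fold and an adjusted p of 0.00762 in the exact test, which was 0.299 with the junction scaling. That scaling shifted the median of all genes from -0.07 to -0.43. Igfbp3 then lay at nearly the median of all genes.

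None of the 10 genes passed edgeR's exact test, which adds the spread between the libraries, a coefficient of variation of 22.7% over all genes tested. It called 0.279% of genes with 1 dispersion for all and 0.131% with a dispersion that follows the mean. The spread was estimated from the same 2 libraries that the test compares, so a gene left uncalled is not shown to be equal in them. The lowest adjusted p among the 10 was 0.454, for Igfbp5, whose unadjusted p of 0.0183 was the single one under 0.05. Genes with an unadjusted p that low made up 7.18% of all tested. With the dispersion that follows the mean, edgeR's adjusted p for Igfbp5 was 0.211, its unadjusted p was 0.000578 and that of Igfbp7 was 0.0249. The share of all genes with so low an unadjusted p under this dispersion is not given, so these unadjusted values have no background.

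**Figure D4:**
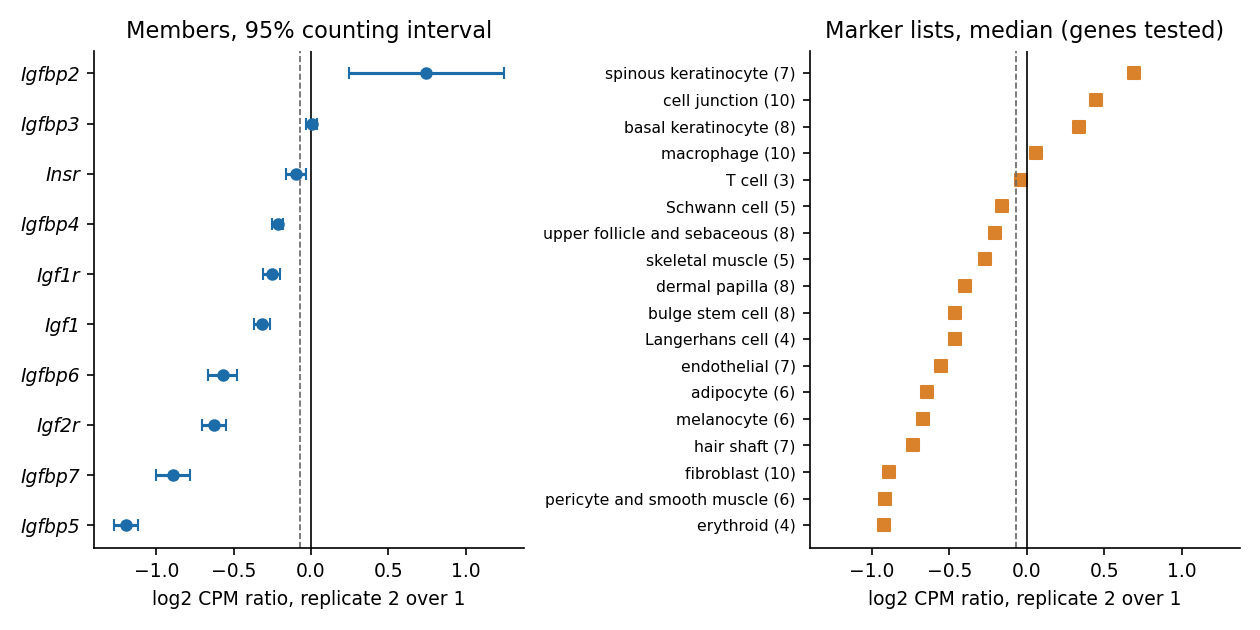
Left, log2 ratio of CPM in replicate 2 over replicate 1 for the 10 genes, without a pseudocount, with exact 95% intervals for counting error. Right, median log2(CPM + 0.5) ratio of 18 cell type marker lists with the number of genes tested. The dashed line is the median of all genes tested, -0.07. Igfbp5 and Igfbp7 lie lowest at left, and the fibroblast, pericyte and erythroid lists lowest at right.

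Markers of other cell types differed between the same libraries. All 10 fibroblast genes were called lower in replicate 2, with a median log2 ratio of -0.89, and their summed level was 13293 CPM, then 6607 CPM. Of 6 tested pericyte and smooth muscle genes 5 were lower and Notch3 was higher, with a median of -0.92 and sums of 282 and 216 CPM. In that list Tagln had 0 and 5 counts. The 7 endothelial genes had 6 lower, a median of -0.55 and sums of 77.8 and 50.1 CPM. Macrophage genes differed less, with 6 higher and 2 lower of 10, a median of 0.06 and sums of 8349 and 9208 CPM. Basal keratinocyte genes were higher in 7 of 8, at a median of 0.34 and sums of 10322 and 14584 CPM. All 7 spinous genes were higher, at a median of 0.69 and sums of 4221 and 7492 CPM. Bulge stem cell genes had 6 of 8 lower and Krt15 higher, at a median of -0.46. Their sums, 3384 and 4646 CPM, ran the other way, with Krt15 alone holding most of them. Of 6 T cell genes, 5 stayed below 1 CPM, with no count for Trac. Cd4 had 35.2 and 33.4 CPM, and the 3 genes of this list with enough counts to be tested had a median ratio of -0.04. Dermal papilla genes, markers of the follicle's dermal signalling centre, had 4 of 8 lower, a median of -0.40 and sums of 95.1 and 68.3 CPM. Medians of the remaining lists were 0.45 for cell junctions, -0.16 for Schwann cells, -0.21 for the upper follicle and sebaceous gland, -0.27 for skeletal muscle, -0.47 for Langerhans cells, -0.65 for adipocytes, -0.67 for melanocytes, -0.73 for the hair shaft and -0.92 for erythroid cells. With the junction scaling the macrophage and basal medians turned to -0.39 and -0.11, while the fibroblast, pericyte, endothelial and bulge medians stayed below 0 and the spinous median above it. With edgeR's exact test and 1 dispersion for all genes, no marker of the 18 lists was called. With the dispersion that follows the mean, the spinous keratin gene Krt1 was, at a log2 ratio of 1.49 and an adjusted p of 0.0160 in edgeR. Igfbp5 lay below the medians of all lists, and Igfbp7 beside those of the fibroblast, pericyte and erythroid lists. Igf1 lay between the dermal papilla and skeletal muscle medians, and Igfbp3 between those of the macrophage and T cell lists. A place among these medians does not name the cells that made an RNA. The part of these cell types in the members' ratios was not tested.

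For Igfbp7 the gene model adds a limit. In GENCODE release M21 on GRCm38 its exons share 85 bases with those of Polr2b, the modified gene, which lies on the opposite strand, and no other member had an exon in common with another gene. Whether strand was used in counting is not stated in the sources at hand, so reads from these bases cannot be assigned with certainty. The counted model of Polr2b also differs. Its deposited length is 3812 bases, against 4667 exonic bases in M21, so it may lack this overlap. Polr2b had 88.3 and 78.4 CPM, a log2 ratio of -0.17 beside -0.88 for Igfbp7. The part of the overlap or of the modified allele in the level of Igfbp7 was not tested.

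The rest of the pathway was measured through lists of 51 further genes, of which 45 reached 1 CPM and 38 reached 10 CPM in both libraries. Of 46 tested, the exact binomial test called 23 lower and 11 higher in replicate 2, at a median log2 ratio of -0.15, and none passed edgeR's exact test, with 4 at an unadjusted p under 0.05. No count was found for Ins1, Ins2 and Igfbpl1. Among all genes tested, 27.2% were lower and 16.9% higher, against 34.5% and 29.4% of those at 10 CPM or more in both libraries. Of 5 genes for binding protein proteases and their inhibitors, 4 were lower and none higher, and with TMM 3 were lower. The serine protease gene Htra1 was highest at 286 ± 30.0 TPM, above Igfbp4. Pappa2, for pappalysin 2, had 12.3 and 7.72 TPM, and Pappa, for pappalysin 1, had 6.04 and 2.94 TPM. Their inhibitor genes Stc2 and Stc1 stood at 2.95 ± 0.308 and 0.952 ± 0.338 TPM. Igfals, for the subunit that joins IGFBP3 in blood, had 1.90 ± 0.712 TPM, and Igfbp1 had 15 and 8 counts.

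Inside the cell, all 31 signalling genes of the adaptor, PI3K and AKT, mTORC1 and FOXO lists were detected. Their list medians of the log2 ratio ran from -0.16 to 0.12, beside -0.55 for the list of proteases and inhibitors. That -0.55 was the ratio of the inhibitor gene Stc1, with 66 and 36 counts, while the protease gene Htra1 had -0.22. With the junction scaling the PI3K and AKT median turned to -0.33 and the adaptor median was -0.46; with TMM the adaptor median was 0.06. Of 9 adaptor and substrate genes, 6 were not called, 2 were lower and 1 was higher, and with TMM 2 were lower and 3 higher. Irs2, which links the receptors to PI3K, was highest at 137 TPM in both libraries, with a log2 ratio of 0.00, while its relative Irs1 had 23.1 and 17.6 TPM. The adaptor gene Grb2 had 95.4 ± 10.1 TPM and Grb14 was lowest at 2.52 ± 0.599 TPM. The imprinted inhibitor gene Grb10 had 21.6 and 12.9 TPM, with the list's lowest log2 ratio, -0.73. Of 10 PI3K and AKT genes, 6 were higher and 4 lower, at a median of 0.12, and with TMM 6 were higher and 2 lower. Akt1, for a kinase that acts below PI3K, was highest at 128 ± 10.4 TPM. Of 9 genes of the mTORC1 arm and its relatives, 3 were higher and 4 lower, and with TMM 4 were higher and 2 lower. Rheb, the activating GTPase, had 82.7 ± 2.56 TPM, the translation repressor gene Eif4ebp1 65.6 ± 6.56 TPM and Mlst8 4.87 ± 0.483 TPM. All 3 FOXO factor genes, which AKT keeps out of the nucleus, were lower in replicate 2, and 1 of the 3 was with TMM, at log2 ratios of -0.24 for Foxo3, -0.10 for Foxo1 and -0.12 for Foxo4, with Foxo3 highest at 97.9 ± 11.3 TPM.

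Growth hormone drives Igf1 transcription through STAT5. Stat5a and Stat5b had 41.9 ± 1.31 and 35.6 ± 1.59 TPM, and the growth hormone receptor gene Ghr had 31.8 TPM in replicate 1 and 24.3 TPM in replicate 2. Socs2, a feedback inhibitor that STAT5 induces, was the lowest of the 5 by TPM, with 7.90 and 2.90 CPM. Its log2 ratio of -1.31 was the lowest of the pathway genes tested, and its adjusted p in edgeR's exact test was 0.303. Genes for proteins that bind Igf2 mRNA were low, with Igf2bp3 at 4.58 ± 0.0413 TPM and Igf2bp2 at 5.32 and 2.19 TPM, while Igf2bp1 had 6 counts and 1 count.

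**Figure D5:**
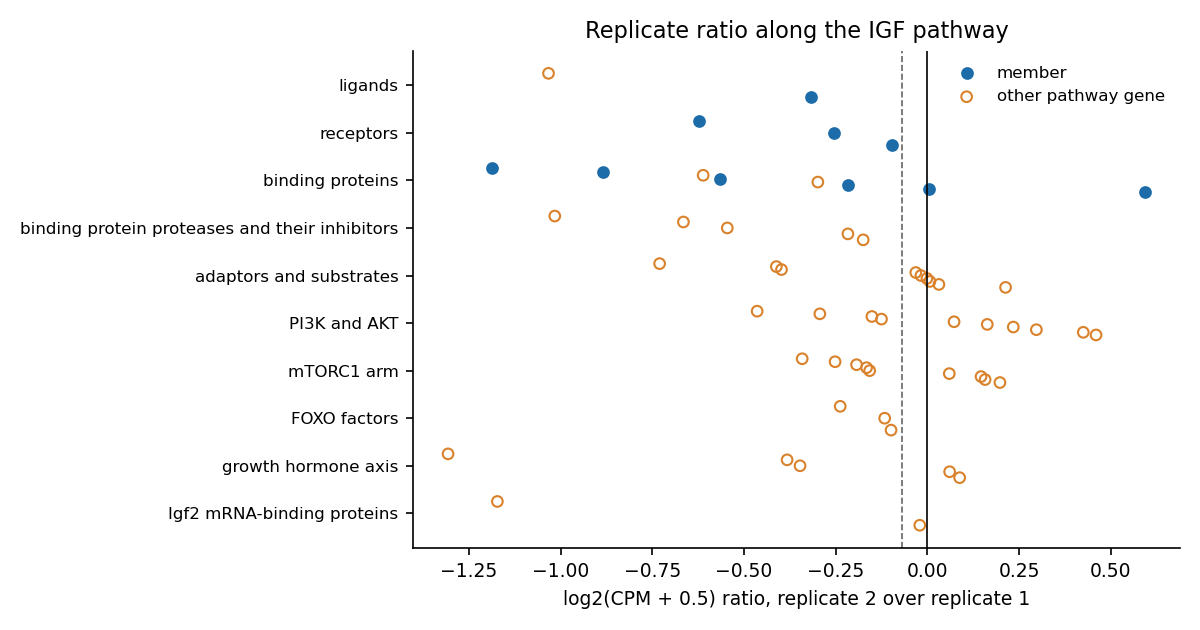
Log2(CPM + 0.5) ratio of replicate 2 over replicate 1 for the pathway genes with 10 or more counts in total, by list, with the 10 members filled and other genes open. The dashed line is the median of all genes tested, -0.07. Ligand, binding protein and protease genes lie mostly left of it, and the PI3K and AKT genes lie on both sides.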

How the data were processed

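Total RNA of 2 replicate samples of 1 group was measured by paired-end sequencing with reads of 150 bases, per the labels' protocols. The deposited values are raw counts for each gene, beside its length. Counting used featureCounts on mm39, per the submitters' processing notes. Not given in the sources used here are the aligner, the annotation, the strand setting and the handling of reads that map to several places. The length joins all exons of a gene model, so TPM understates a gene whose long transcript forms are not used.

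CPM used the total of all counts and TPM the deposited length. Log2 ratios used log2(CPM + 0.5). Genes with 10 or more counts in total entered an exact binomial test (two-sided, Benjamini-Hochberg adjusted at 0.05), and with edgeR's exact test using a dispersion from an intercept-only fit, since edgeR's quasi-likelihood test has no contrast in 1 group. Intervals are exact (Clopper-Pearson) 95% intervals. They and the floor of 3 counts cover counting error only. The tests were tested on simulated data of 23690 genes, simulating replicate 2 against replicate 1. With counting error only, the binomial test found 61% of the genes changed by 0.3 (log2), with 7 false calls. In a second simulation edgeR's exact test found 11% of the genes changed by 1 and 98% of those changed by -2. The spread between libraries set there was smaller than the 22.7% of these data. These rates therefore do not carry over to the real libraries.

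The members, the 18 marker lists, the 11 pathway lists and the tests were chosen with earlier results of these data known. Named are all members and, of each pathway list, the 2 highest and the lowest gene by TPM and those with no count, of which some are not reported here; of each marker list the rule names the highest gene and those at 0, and not all are printed. Igfals, Igfbp1, Pappa, Stc2, Irs1, Grb10, Ghr, Airn, Polr2b, Xist, Uty and the receptor kinase genes Egfr, Erbb2, Erbb3, Fgfr3, Pdgfra, Met and Kdr were named outside this rule. No gene is named for a pattern like that of a member, since 2 libraries give none. Promoters and gene overlaps came from RefSeq and GENCODE tables on GRCm38, matched by symbol, and no coordinates of mm39 are given. Alternatives tried were other scalings, pseudocounts, filters, dispersions and length settings. Software was Python 3.11.15, numpy 2.4.6, pandas 2.3.3, scipy 1.17.1, R 4.3.3, edgeR 4.0.16 and DESeq2 1.42.0, the last for size factors only.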

Additional observations from a re-analysis of the deposited data

How the results depend on the processing

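With 2 libraries of 1 group, a ratio between them cannot be had without one of them, and no paired analysis was possible because there is 1 group only. The number of members detected was 10 under TMM scaling, at 1 TPM and in each library alone, and 9 at 10 CPM. Calls by the binomial test numbered 9 of the members under every scaling and without the filter on low counts, though not the same genes, as given above for Insr, Igfbp3 and Igfbp2, and 0 under edgeR's exact test with either dispersion. Over all genes, 10436 calls became 15974 when scaled to the junction list (595 higher and 15379 lower), 66 with edgeR's common dispersion and 31 with its trended dispersion. That scaling also took Igfbp3 to -0.45. Levels between genes depended on length. With CPM and no length scaling, Igf1r against Insr turned to 0.31, and the other log2 differences were -0.90 for Igf2r against Igf1r, 0.35 for Igf1 against Igf1r, 2.34 for the summed binding proteins against Igf1 and -3.16 for Igfbp7 against Igfbp4. Shares in CPM were 39.9% for Igfbp3, 9.59% for Igfbp5, 6.01% for Igfbp6 and 4.56% for Igfbp7. With 200 bases taken off each length, the summed binding proteins stood at 3.91 against Igf1. Igfbp2, with 57 and 87 counts, is the member whose depth limits its ratio most.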

Other observations

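The binding protein genes lie in the genome partly as neighbours, and adjacent genes differed widely in level. Igfbp5 and Igfbp2 are adjacent on mouse chromosome 1 in the RefSeq table of GRCm38.p6. Igfbp5 exceeded Igfbp2 by 23.9-fold in replicate 1 and 6.25-fold in replicate 2 (TPM), and in the exact binomial test Igfbp5 was lower and Igfbp2 higher in replicate 2. Igfbp3 and Igfbp1 are adjacent on chromosome 11, and Igfbp3 exceeded Igfbp1 by 336-fold and 576-fold, where Igfbp1 rests on 15 and 8 counts.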
